A study of Homo sapiens with 30 samples.

Results

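Sorted cardiac mesoderm of day 4 (CMESO) was set against sorted primitive mesoderm of day 3 (PMESO), gene by gene, for 1514 genes. These are the genes that both deposited sort tables hold under 1 name and that reached at least 5 FPKM (fragments scaled by gene length and by the size of the library) in PMESO or CMESO. The table of the day 3 sort holds 4648 genes and that of the day 4 sort holds 4825. They share 2161 names, of which 1 stands more than once in a table and was left out and 646 lay under the minimum. The time-course table has 41495 entries and held each of the 1514 genes. Both sort tables list genes called different between a sorted population and its counterpart (q-value under 0.05 in the authors' deposited table), so a gene called in 1 of the sorts or in neither is not among the 1514. Just inside the minimum were STC1 and ELFN1, both at 5.01 FPKM in CMESO, and just outside were PCOLCE2 at 4.97 and ABCG2 at 4.96 in PMESO.

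The study followed RNA by sequencing while the H7 human embryonic stem cell line (1 line) was turned into cardiomyocytes, with 30 libraries in 15 groups. Cells of every differentiated group received the GSK3 inhibitor CHIR99021, an activator of WNT signalling, at 12 µM for 24 hours and then IWP4, an inhibitor of WNT secretion, at 5 µM for 2 days, as far as their time of harvest allowed. PMESO is the ROR2-positive fraction of day 3, and its counterpart is the ROR2-negative fraction of that day. CMESO is the fraction of day 4 that carried both ROR2 and PDGFRa, and its counterpart carried ROR2 without PDGFRa. Unsorted cells of day 3 (D3) and day 4 (D4) came from the time course. Each group has 2 libraries. The tables give their FPKM as 1 value, so the libraries' spread is not known and no difference between PMESO and CMESO was tested. CMESO and PMESO differ in day and also in gate (PDGFRa was selected on day 4 alone), and these cannot be told apart.

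In the embryo, mesoderm arises when cells leave the epiblast through the primitive streak under WNT, NODAL and BMP signals, lose epithelial contacts and migrate. MESP1 marks the earliest cardiac precursors. As these cells settle into the heart field, transcription factors of the GATA, TBX and HAND families and the coactivator MYOCD act on genes of the contractile apparatus, while WNT and NODAL activity gives way.

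Of the 4 markers, MYL7 and CER1 can be compared between PMESO and CMESO, and TNNT2 and MESP1 within 1 sort each. They were chosen with earlier results of these data known, so they describe the populations and do not test their order. MYL7, the atrial regulatory light chain of myosin (ENSG00000106631.4, chr7:44178463-44180931 in hg19), stood at 8.82 FPKM in ROR2-negative cells, 57.6 in PMESO, 24.3 in PDGFRa-negative cells and 469 in CMESO. It was highest in CMESO, and unsorted D3 and D4 cells had 38.1 and 76.1. CER1, a secreted antagonist of NODAL, BMP and WNT ligands (ENSG00000147869.4, chr9:14719722-14722715 in hg19), stood at 1.16 FPKM in ROR2-negative cells, 62.7 in PMESO, 0.755 in PDGFRa-negative cells and 2.82 in CMESO. Its high value was in PMESO, with 22.4 in D3 and 1.28 in D4 cells. TNNT2, the cardiac troponin T, is held by the day 4 table alone (3.60 FPKM in PDGFRa-negative cells, 63.3 in CMESO), and MESP1 by the day 3 table alone (0.262 in ROR2-negative cells, 5.79 in PMESO). In unsorted cells TNNT2 was higher at D4 (28.7 against 1.79 FPKM) and MESP1 higher at D3 (3.70 against 0.748). Both sort receptors were higher in the positive populations, which the gates select: ROR2 stood at 5.90 FPKM in ROR2-negative cells and 72.0 in PMESO, and PDGFRA at 6.80, 91.9, 8.28 and 304 in ROR2-negative, PMESO, PDGFRa-negative and CMESO cells.

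The promoters of 3 leading genes are shown because they carry textbook motifs of heart muscle and mesendoderm regulation. Each is the 250 bases before the gene's start, on the minus strand, from RefSeq (GRCh38.p14). For MYL7 (chr7:44141333-44141582) capitals mark a CArG box, the binding motif of serum response factor (SRF), whose coactivator is MYOCD. For ANKRD1 (chr10:90921088-90921337), which encodes a cardiac ankyrin repeat protein, they mark GGAATG, a core motif of TEAD factors. For CER1 (chr9:14722734-14722983) they mark AATNCACA, the motif of FOXH1, the DNA-binding partner of NODAL-activated SMADs.
MYL7: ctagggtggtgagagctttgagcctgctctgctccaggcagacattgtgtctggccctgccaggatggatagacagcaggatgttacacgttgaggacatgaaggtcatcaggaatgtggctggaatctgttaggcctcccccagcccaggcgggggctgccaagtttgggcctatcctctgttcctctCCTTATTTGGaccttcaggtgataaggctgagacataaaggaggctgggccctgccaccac
ANKRD1: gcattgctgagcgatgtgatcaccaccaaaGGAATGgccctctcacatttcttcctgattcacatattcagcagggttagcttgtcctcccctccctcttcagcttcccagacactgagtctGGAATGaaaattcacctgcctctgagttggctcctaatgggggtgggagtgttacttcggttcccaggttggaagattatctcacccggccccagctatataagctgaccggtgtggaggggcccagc
CER1: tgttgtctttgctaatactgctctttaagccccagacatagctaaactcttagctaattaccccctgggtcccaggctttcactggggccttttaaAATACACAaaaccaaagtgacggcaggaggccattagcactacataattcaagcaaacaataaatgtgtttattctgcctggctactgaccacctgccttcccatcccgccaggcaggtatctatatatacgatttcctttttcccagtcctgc

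Both strands were searched. In the windows shown only the motif named for each gene was marked, and that of MYL7 also holds GGAATG. The CArG box lay 61 bases before the start of MYL7, GGAATG lay 220 and 128 bases before that of ANKRD1, and AATNCACA lay 154 bases before that of CER1. Of 35116 promoter windows of this length, 1.16% hold a CArG box, 11.9% GGAATG and 2.89% AATNCACA. Among genes at least 2-fold higher in CMESO, 186 of 282 matched the table with 323 windows, and 1.55%, 14.9% and 3.72% of these windows held the 3 motifs. Among genes at least 2-fold lower, 108 of 181 matched with 170 windows, and the shares were 2.94%, 7.65% and 2.35%. A match describes letters in a window and no binding was measured.

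Across the 1514 genes, 282 (18.6%) were at least 2-fold higher in CMESO than in PMESO and 181 (12.0%) at least 2-fold lower, taken as 1 or more on the log2(FPKM + 1) scale, which understates differences of low genes. The other 1051 lay within 2-fold. The median difference was 0.14, with quartiles of -0.46 and 0.75. The tables were normalized apart, so the balance of higher and lower genes depends on how they are scaled: the counts were 226 higher and 219 lower with that median set to 0, which evens them by construction, and 259 and 204 with it set to the median of D4 against D3. At least 4-fold higher were 70 genes and at least 4-fold lower 38. A lower value in bulk cells can mean fewer cells of a type or less RNA per cell, which cannot be told apart.

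**Figure D1:**
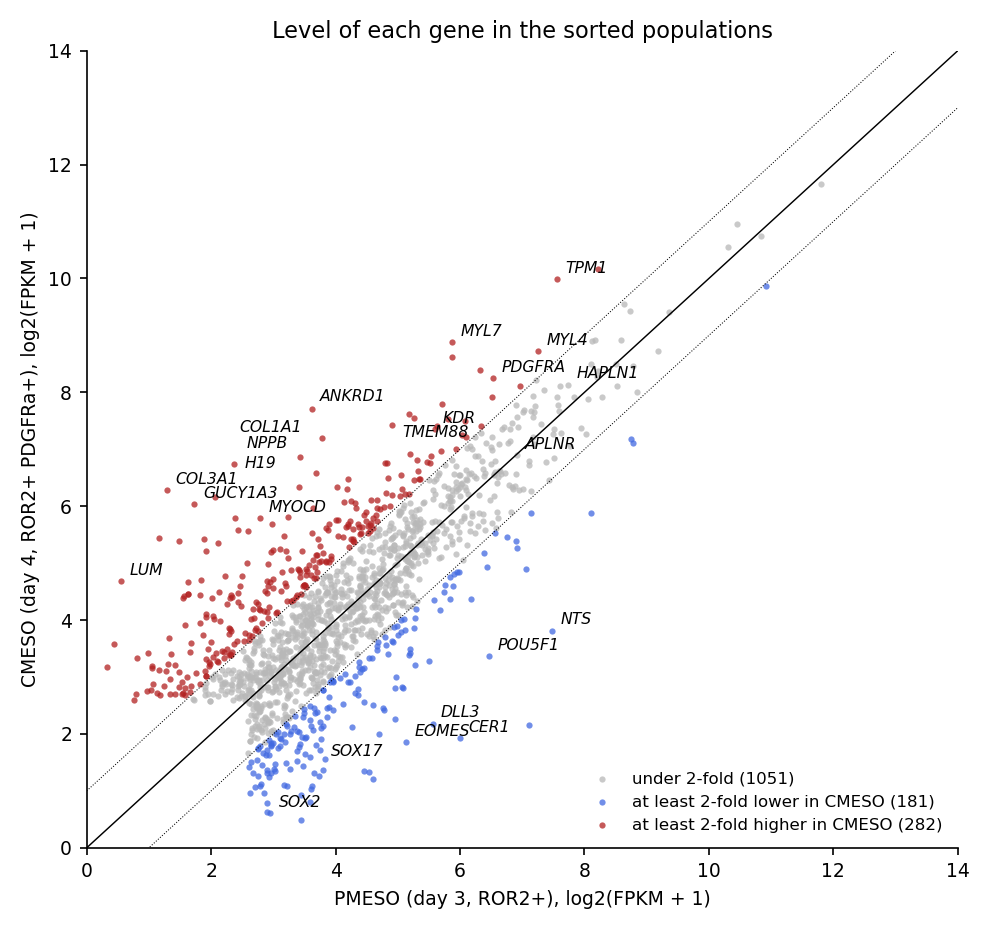
Level of each of the 1514 genes in PMESO (x axis) and CMESO (y axis), both as log2(FPKM + 1), 1 point per gene. The solid line marks equal levels and the dotted lines 2-fold. The 282 red genes lie above the upper line, with COL3A1 the farthest and MYL7 also labelled, and the 181 blue genes below the lower one, with CER1 and NTS among the farthest.

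Unsorted cells of the same days, which sit in 1 table, were used to check the direction. Among the same genes 226 (14.9%) were at least 2-fold higher at D4 than at D3 and 208 (13.7%) at least 2-fold lower, against 8.85% and 10.1% of all 11404 genes with at least 5 FPKM at D3 or D4. Of the 282 genes higher in CMESO, 270 had a higher value at D4 than at D3 and 155 were at least 2-fold higher. Of the 181 lower in CMESO, 161 had a lower value at D4 and 99 were at least 2-fold lower. The D3 value lay between those of PMESO and ROR2-negative cells for 1083 genes (71.5%), and the D4 value between those of CMESO and PDGFRa-negative cells for 951 (62.8%). Both sorted day 4 populations carried ROR2 and the study has no ROR2-negative group of day 4. They therefore leave out part of the D4 cells, and the shares of the days are not like measures. The median D4 minus D3 difference was 1.07 for the first group and -1.07 for the second. Across the 1514 genes, which are not independent replicates, the sorted and unsorted differences had a Pearson r of 0.727 and a Spearman rho of 0.741.

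**Figure D2:**
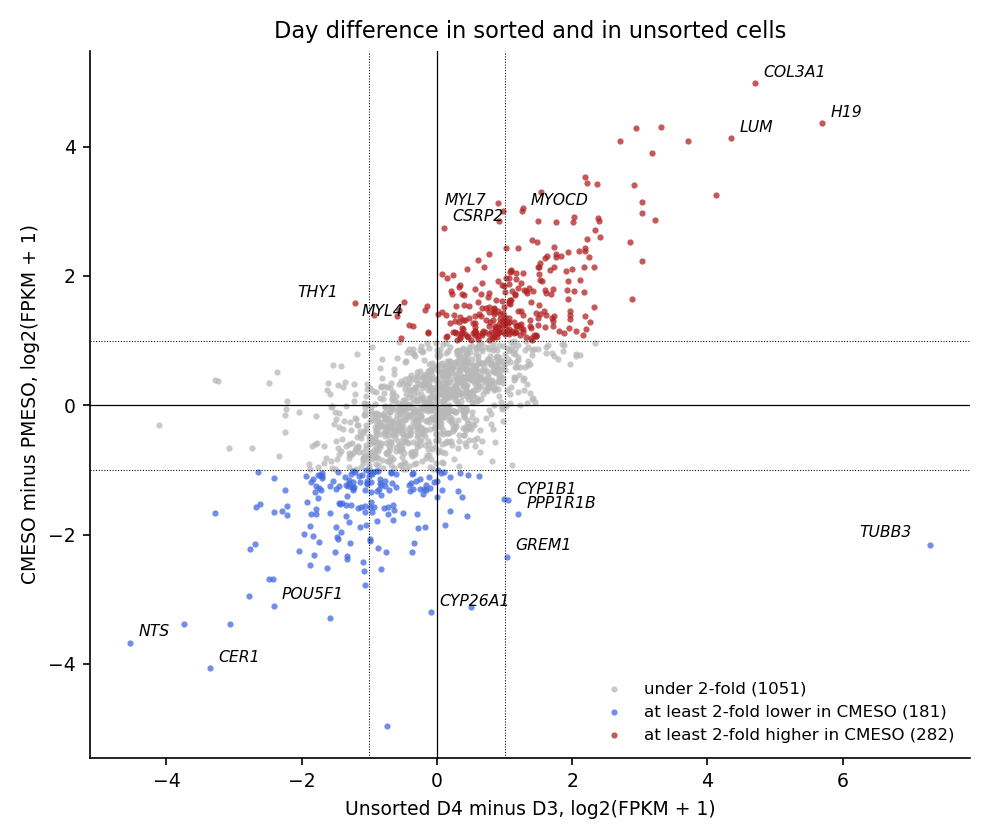
Difference of CMESO minus PMESO (y axis) against unsorted D4 minus D3 (x axis), both in log2(FPKM + 1), 1 point per gene, with dotted lines at 2-fold. Most red genes lie right of 0 (270 of 282) and most blue genes left of 0 (161 of 181), while TUBB3, GREM1 and THY1 lie on the opposite side.

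Regulators of heart formation were higher in CMESO or near their PMESO level. Of 21 genes of the cardiac mesoderm and progenitor list, 8 were at least 2-fold higher, 1 at least 2-fold lower and the median difference was 0.66, against 0.14 over all 1514 genes. In the authors' deposited tables all 25 list genes of the day 3 sort were higher in PMESO than in ROR2-negative cells (55.2% of all genes of that table), and 24 of 27 of the day 4 sort were higher in CMESO than in PDGFRa-negative cells (47.5%). MYOCD, the coactivator of SRF, stood at 0.693 FPKM in ROR2-negative cells, 5.88 in PMESO, 1.37 in PDGFRa-negative cells and 54.2 in CMESO. TMEM88, a membrane protein that restrains WNT signalling in cardiac precursors, stood at 3.74, 28.9, 13.4 and 172 FPKM in the same order. TBX20, a T-box factor of the heart tube, stood at 0.637, 7.62, 3.09 and 37.0. For these 3 genes CMESO was the highest of the 4 populations and PMESO lay above ROR2-negative cells. The differences of CMESO minus PMESO were 3.00, 2.53 and 2.14, and in unsorted cells D4 minus D3 was 1.26, 2.86 and 1.74.

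Other genes of the list had smaller differences. KDR, a VEGF receptor of early mesoderm, stood at 47.3 FPKM in PMESO and 163 in CMESO. The difference was 1.08 for GATA5, 0.91 for GATA4 (24.9 against 47.5 FPKM), 0.62 for HAND1 (47.5 against 73.4) and 0.33 for GATA6 (41.2 against 52.1). APLNR, the receptor of apelin and a surface marker of early mesoderm, had about the same level in both (119 and 118 FPKM) and stood far below it in the counterparts (2.21 in ROR2-negative and 9.75 in PDGFRa-negative cells). The 1 gene of the list at least 2-fold lower in CMESO was MSX1, a homeobox factor downstream of BMP (33.2 against 15.3 FPKM). ISL1 and TBX3, factors of the second heart field and of the conduction system, had their highest value in PDGFRa-negative cells (24.9 and 45.8 FPKM, against 15.8 and 21.4 in CMESO).

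Most contractile genes measured were higher in CMESO. Of 8 sarcomere genes among the 1514, 5 were at least 2-fold higher and none lower. The median was 1.29 (0.38 for the same genes in D4 against D3). In the day 4 sort, 16 of 18 list genes were higher in CMESO than in PDGFRa-negative cells, against 47.5% of all genes called there. TPM1, a tropomyosin, stood at 289 FPKM in ROR2-negative cells, 187 in PMESO, 361 in PDGFRa-negative cells and 1016 in CMESO. MYL4, the atrial essential light chain, stood at 6.33, 152, 12.2 and 423. TTN, the giant sarcomere spring, stood at 3.22, 11.5, 9.53 and 32.2. CMESO was highest for each of the 3, but MYL4 was not higher in unsorted D4 cells (71.0 FPKM, against 80.8 at D3). The sarcomere genes below PMESO were ACTC1, cardiac actin (82.1 against 52.7 FPKM, highest in ROR2-negative cells at 142), and TNNT1, the slow skeletal troponin T (110 against 82.3).

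The 12 largest increases shared with the time course included genes of the heart and of other tissues. ANKRD1 stood at 6.61 FPKM in ROR2-negative cells, 11.3 in PMESO, 64.6 in PDGFRa-negative cells and 208 in CMESO, a difference of 4.09. NPPB, which encodes the natriuretic peptide BNP, stood at 1.54, 9.82, 11.0 and 116, a difference of 3.44. GUCY1A3, a subunit of the soluble guanylate cyclase that senses nitric oxide, stood at 0.262, 2.32, 1.15 and 64.6, a difference of 4.30. RGS4, which limits signalling of G protein-coupled receptors, stood at 1.06, 3.18, 1.21 and 70.2. For ANKRD1 both day 4 populations lay above both day 3 populations, whereas GUCY1A3 and RGS4 were high in CMESO alone among the 4. PLAT, the tissue plasminogen activator (1.23 against 42.4 FPKM), SLC40A1, the iron exporter ferroportin (1.81 against 41.1), and TGFB2, a TGF-beta ligand (2.69 against 41.8), were at least 2-fold higher in unsorted D4 cells as well. AFAP1L2, an adaptor protein (4.21 against 54.7), and MPPED2 (2.78 against 36.2) belong to the same 12 genes.

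The gene with the largest increase of the 1514 encodes a matrix protein. COL3A1, the chain of fibrillar collagen III (ENSG00000168542.8, chr2:189839046-189877472 in hg19), stood at 0.802 FPKM in ROR2-negative cells, 1.46 in PMESO, 1.08 in PDGFRa-negative cells and 76.8 in CMESO. It was near 1 in the other populations, and unsorted cells had 2.07 at D3 and 78.7 at D4. LUM, the collagen-binding proteoglycan lumican, stood at 0.0657, 0.473, 0.717 and 24.8. COL1A1, a chain of collagen I, stood at 5.19, 12.8, 28.7 and 146, and PDGFRB, the second PDGF receptor of mural cells and fibroblasts, at 2.00, 7.96, 8.43 and 43.4. In each of the 4 CMESO was the highest sorted population. In unsorted D4 cells LUM stood at 47.4, above CMESO, whereas COL1A1 and PDGFRB stood at 53.5 and 29.9, below it. Of 14 genes of the smooth muscle and stroma list, 8 were at least 2-fold higher, none lower, and the median was 1.23. COL5A2 (68.1 against 38.7 FPKM) and COL6A1 (138 against 110) were among those below PMESO. In unsorted cells 5 of the 14 were at least 2-fold higher at D4 and 1 lower, with a median of 0.55.

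**Figure D3:**
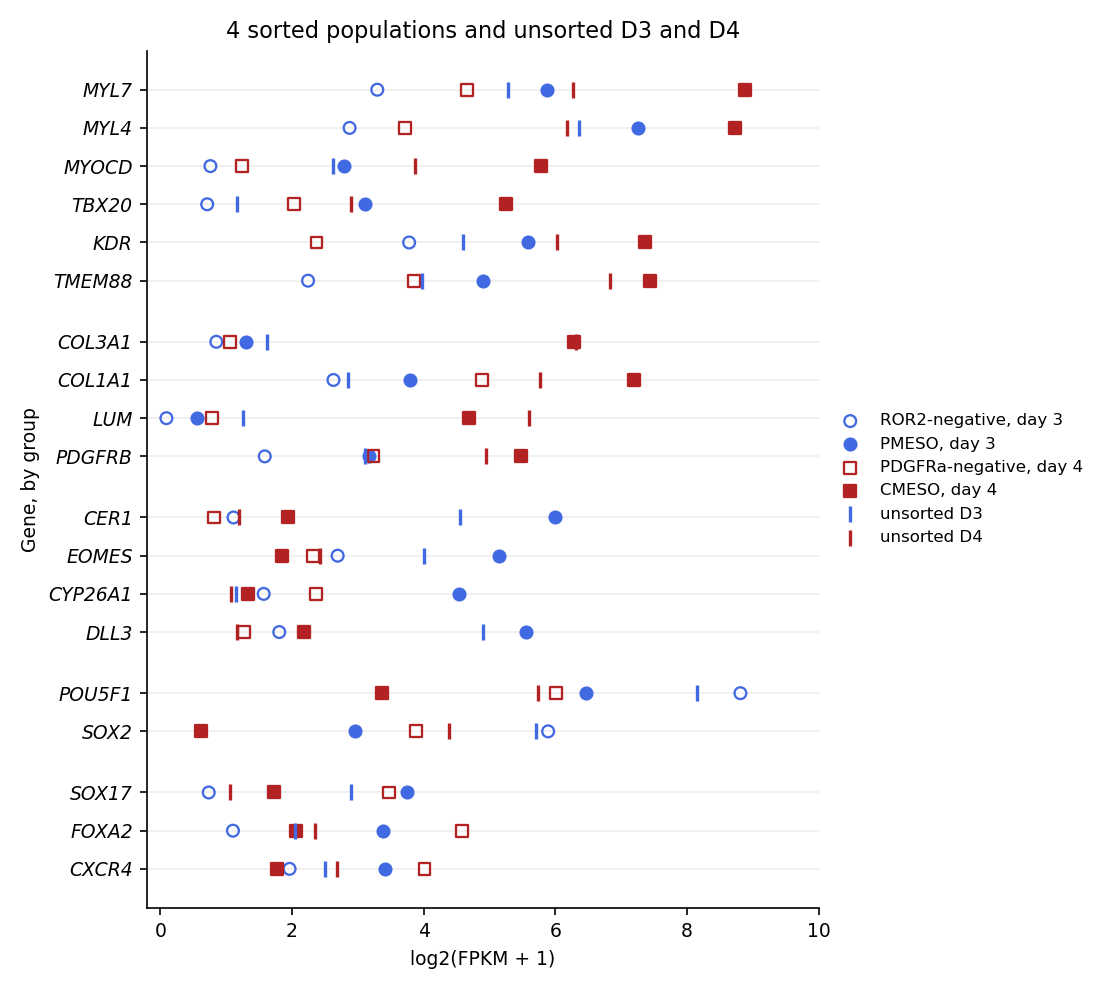
Levels of 19 genes in log2(FPKM + 1) in the 4 sorted populations (circles for day 3, squares for day 4, filled for PMESO and CMESO) and in unsorted cells (vertical ticks), 1 value per gene and group. From top to bottom the blocks are heart, matrix, mesendoderm, pluripotency and endoderm genes. The filled red square of CMESO is rightmost of the sorted populations for the heart and matrix genes and lies left of the filled blue circle of PMESO in the other 3 blocks.

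Most mesendoderm genes measured were lower in CMESO. Of 7 genes of the primitive streak and mesendoderm list among the 1514, 5 were at least 2-fold lower and 1 higher. The median was -1.69. In D4 against D3 the median of the same genes was -0.70, with 2 at least 2-fold lower and 0 higher. CER1, EOMES and LEFTY2 reached 5 FPKM in PMESO and not in CMESO, and NODAL the reverse, so the minimum fixed their direction. Apart from CER1 (difference -4.06), EOMES, a T-box factor of mesendoderm, stood at 5.47 FPKM in ROR2-negative cells, 34.2 in PMESO, 3.99 in PDGFRa-negative cells and 2.62 in CMESO. LEFTY2, a feedback inhibitor of NODAL, stood at 0.422, 6.62, 0.477 and 1.36. For CER1, EOMES and LEFTY2 alike, PMESO was the highest of the 4 populations. Against 55.2% of all genes called in the day 3 sort, 18 of 18 genes of the list were higher in PMESO than in ROR2-negative cells. These included MIXL1, a homeobox factor of the streak (1.75 against 33.9 FPKM), which the day 4 table does not hold. The list gene higher in CMESO was NODAL itself (2.77 against 8.92 FPKM), with 2.65 at D3 and 3.35 at D4.

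Of 9 pluripotency genes among the 1514, 3 were at least 2-fold lower in CMESO, none higher, and the median was -0.91. POU5F1 (OCT4), a core factor of the pluripotent state (ENSG00000204531.11, chr6:31126319-31148508 in hg19), stood at 449 FPKM in ROR2-negative cells, 87.3 in PMESO, 63.3 in PDGFRa-negative cells and 9.30 in CMESO. SOX2, its partner factor, stood at 58.4, 6.73, 13.7 and 0.529. ZFP42 (REX1) stood at 51.2, 29.4, 27.5 and 11.3. CMESO was lowest of the 4 for these genes, and each was lower at D4 than at D3 in unsorted cells. TERF1, a telomere-binding protein, ran the other way (36.0 in PMESO, 58.7 in CMESO). In the day 3 sort, 0 of 16 list genes were higher in PMESO, and in the day 4 sort, 2 of 13 were higher in CMESO. Over all genes called in these sorts the shares were 55.2% and 47.5%. LIN28A, the blocker of let-7 microRNA maturation, differed little between the populations (309 against 242 FPKM).

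WNT genes did not share a direction. Of 12 ligands, receptors and antagonists, 3 were at least 2-fold higher in CMESO (TMEM88, SFRP5 and WNT11), 5 lower (WNT3, WNT8A, FZD5, SFRP2 and DKK3), and the median was -0.63. The ligand WNT3, which acts in streak formation, stood at 20.03 FPKM in PMESO and 7.49 in CMESO, whereas WNT11, a ligand of non-canonical signalling in the heart, stood at 2.21 and 6.13. Among the secreted antagonists SFRP5, a marker of early heart precursors, stood at 0.629 FPKM in ROR2-negative cells, 6.81 in PMESO, 6.95 in PDGFRa-negative cells and 35.7 in CMESO. SFRP2 ran the other way, with 49.1, 6.45, 7.20 and 0.719 in the same order. The receptor FZD5 stood at 48.0 in PDGFRa-negative cells and at 3.96 in CMESO. Of the WNT targets, 3 were among the 1514 and none passed 2-fold on the log2(FPKM + 1) scale. AXIN2, the negative feedback scaffold, stood at 23.6 FPKM in PMESO and 11.7 in CMESO, just short of that cutoff. With either rescaling of the median difference it would count as at least 2-fold lower. LGR5 stood at 43.7 and 34.7, and LEF1 at 68.2 and 87.3. DKK1, a secreted inhibitor held by the day 3 table alone, stood at 9.11 FPKM in ROR2-negative cells and 143 in PMESO.

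Of the few NODAL, BMP and FGF pathway genes that passed 2-fold, those of NODAL and FGF went either way and those of BMP were lower. The counts are small, and the shares over the 1514 genes were 18.6% higher and 12.0% lower. Of 6 NODAL pathway genes 1 was at least 2-fold higher and 2 lower (median 0.28), and NODAL, LEFTY2, CER1 and FOXH1 also belong to the mesendoderm list. Of 12 BMP pathway genes none was at least 2-fold higher and 3 were lower (median -0.14). These 3 were MSX1 and the antagonists FST (11.9 FPKM in PMESO, 2.51 in CMESO) and GREM1 (11.5 and 1.48, with 10.5 at D3 and 22.6 at D4). The ligand BMP4 stood at 26.2 FPKM in ROR2-negative cells, 90.1 in PMESO, 11.6 in PDGFRa-negative cells and 51.4 in CMESO, so it was high in both positive populations. BMP2 and BMP5 stood at 21.5 and 14.2 in PMESO and at 28.9 and 23.0 in CMESO. The 7 FGF genes had a median of 0.56 (-0.05 in D4 against D3). Among them FGF2 was at least 2-fold lower in CMESO (5.27 against 1.85 FPKM) and the decoy receptor FGFRL1 at least 2-fold higher (7.36 against 16.6), though under 2-fold with either rescaling (0.93 and 0.98). FGF10, a ligand of the second heart field, stood at 13.4 in PMESO and 26.2 in CMESO and at 1.42 in PDGFRa-negative cells.

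Most of the few NOTCH genes measured were lower and retinoic acid genes split. Of 5 NOTCH pathway genes none was at least 2-fold higher and 3 were lower, with a median of -1.08. In D4 against D3 the median of the same genes was -0.53 and 2 were at least 2-fold lower. DLL3, an inhibitory ligand of presomitic mesoderm, stood at 2.50 FPKM in ROR2-negative cells, 46.2 in PMESO, 1.41 in PDGFRa-negative cells and 3.54 in CMESO. HES1, the main effector, stood at 62.7, 108, 57.5 and 43.1. Both were highest in PMESO, and LFNG, which modifies NOTCH receptors, was highest in PDGFRa-negative cells (36.6, against 15.8 in PMESO and 6.94 in CMESO). In unsorted cells HES1 stood at 66.9 at D3 and 56.3 at D4, and LFNG at 6.98 and 9.92. Of 5 retinoic acid genes 2 were at least 2-fold higher and 1 lower (median 0.48). The lower one, CYP26A1, which degrades retinoic acid, stood at 22.2 FPKM in PMESO and 1.52 in CMESO, but at 1.23 and 1.095 in unsorted D3 and D4 cells. The D3 value lay below that of both sorted day 3 populations (1.97 in ROR2-negative cells). RARB, a retinoic acid receptor that is itself a target, stood at 0.780, 2.55, 11.7 and 20.6 in ROR2-negative, PMESO, PDGFRa-negative and CMESO cells. DHRS3, which reduces retinal, was the other higher gene (3.28 in PMESO, 8.67 in CMESO) and was highest in PDGFRa-negative cells (19.7).

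The epithelial genes CDH1, EPCAM and ESRP1 were lower in CMESO and the mesenchymal factors TWIST1, ZEB2 and PRRX1 higher, while their list as a whole had no common direction. CDH1, the epithelial cadherin, stood at 58.8 FPKM in ROR2-negative cells, 13.6 in PMESO, 41.9 in PDGFRa-negative cells and 3.90 in CMESO. EPCAM, an epithelial adhesion molecule, stood at 149, 71.1, 134 and 19.6, and ESRP1, a splicing factor of epithelial cells, at 23.5, 12.0, 33.6 and 4.20. Each was lower in the positive than in the negative population on both days. TWIST1 stood at 20.1 in PMESO and 44.7 in CMESO, ZEB2 at 22.4 and 46.1, and PRRX1 at 1.26 and 5.44. TWIST1 and ZEB2 fall under 2-fold with the median difference set to 0. PRRX1 stood at 6.33 at D3 and 12.1 at D4, above the sorted populations of each day. The neural cadherin CDH2, given below, was lower in CMESO than in PMESO. KRT8, a simple-epithelium keratin, went against CDH1, EPCAM and ESRP1 (296 FPKM in PMESO, 1147 in CMESO, 254 at D3 and 572 at D4). Of the 16 genes of the list 4 were at least 2-fold higher, 3 lower, and the median was 0.10. In D4 against D3 1 of the 16 was at least 2-fold higher and 1 lower, with a median of 0.23.

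Among adhesion genes PCDH7, a protocadherin, stood at 0.968 FPKM in ROR2-negative cells, 9.70 in PMESO, 18.3 in PDGFRa-negative cells and 79.4 in CMESO. LAMA1, a laminin chain of basement membranes, stood at 45.2 in PMESO and 117 in CMESO, and NCAM1 at 24.3 and 52.7, which is under 2-fold (0.94) with the median difference set to 0. The makers and linkers of hyaluronan, the main matrix sugar of the early heart, separated positive from negative cells on both days: HAS2 stood at 3.31, 103, 19.8 and 166 FPKM and HAPLN1 at 5.85, 212, 5.69 and 280 in ROR2-negative, PMESO, PDGFRa-negative and CMESO cells. Neither reached 2-fold between PMESO and CMESO. Of the 9 list genes 3 were at least 2-fold higher and 1, the hyaluronan receptor HMMR, which also acts in the mitotic spindle, lower (58.8 against 27.2), with a median of 0.68.

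Of 3 HOX genes among the 1514, 2 were at least 2-fold higher in CMESO (median 1.21), and of 4 imprinted genes 3 were (median 2.22). The share over the 1514 genes was 18.6%. HOXB1, HOXB3, H19 and IGF2 reached the minimum FPKM in CMESO and not in PMESO, so the minimum fixed their direction. HOXB1 stood at 2.93 FPKM in PMESO and 8.63 in CMESO, HOXB2 at 7.82 and 14.4, and HOXB3 at 4.35 and 11.4. The 3 HOX genes stood at 2.47, 2.71 and 3.63 at D3 and 15.7, 11.0 and 13.1 at D4. H19, an imprinted noncoding RNA, stood at 2.43 FPKM in ROR2-negative cells, 4.17 in PMESO, 17.4 in PDGFRa-negative cells and 106 in CMESO. Its neighbour IGF2, a fetal growth factor, stood at 0.825, 3.31, 11.1 and 40.1. Both were higher in the day 4 populations than in the day 3 ones. In unsorted cells H19 stood at 3.30 at D3 and 222 at D4, and IGF2 at 1.52 and 42.9, with both D4 values above CMESO. Of the exon bases of IGF2, 75.01% lie in another annotated gene, so its value is uncertain. PEG10, a retrotransposon-derived imprinted gene, stood at 23.3 in PMESO and 54.7 in CMESO but was highest in PDGFRa-negative cells (101).

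Proliferation genes differed between the sorted and the unsorted comparison. Of 7 among the 1514, 1 was at least 2-fold higher in CMESO, 1 lower, and the median was 0.01. In unsorted cells the median of these 7 was -0.85, and of all 29 list genes 14 were at least 2-fold lower at D4 and 0 higher. Of all genes with at least 5 FPKM at D3 or D4, 10.1% were at least 2-fold lower and 8.85% higher. CDK1, the mitotic kinase, stood at 92.4 FPKM in PMESO and 93.1 in CMESO, but at 85.9 at D3 and 40.6 at D4. The cyclins of G1 went apart: CCND1 stood at 21.0 in PMESO and 7.94 in CMESO, and CCND2 at 25.4 and 60.9 (42.9 at D3 and 33.3 at D4). In the day 4 sort, 13 of 15 list genes were higher in CMESO than in PDGFRa-negative cells, against 47.5% of all genes called in that sort. Genes of the immediate early response, which cell dissociation can raise, had a median of 0.46 over 8 genes, with FOSB at least 2-fold higher (21.5 against 52.2 FPKM) and FOS within 2-fold (295 against 333). Their part in the other differences was not tested.

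Markers of other cells that the gates could hold were measured beside these results. The 8 definitive endoderm markers that both tables hold summed to 11.0 FPKM in ROR2-negative cells, 49.7 in PMESO, 151 in PDGFRa-negative cells and 38.9 in CMESO. SOX17, an endoderm and endothelial factor, stood at 0.664, 12.5, 10.1 and 2.30, FOXA2 at 1.15, 9.40, 23.0 and 3.16, and CXCR4, a chemokine receptor of endoderm, at 2.90, 9.66, 15.1 and 2.41. All 10 endoderm genes of the day 3 table were higher in PMESO than in ROR2-negative cells (55.2% of all its genes). Of 10 in the day 4 table, 2 were higher in CMESO than in PDGFRa-negative cells (47.5% of all its genes). The 4 endoderm genes among the 1514 had a median of -1.48, with 1 at least 2-fold higher and 3 lower. SOX17, FOXA2 and CXCR4 reached 5 FPKM in PMESO and not in CMESO, and APOA2 the reverse, so the minimum fixed the direction of each. In D4 against D3 the median was 0.25, where FOXA2 stood at 3.11 and 4.07 FPKM and CXCR4 at 4.63 and 5.44. The 2 that were higher in CMESO than in PDGFRa-negative cells were APOA1, a plasma apolipoprotein (22.1 FPKM in PDGFRa-negative cells, 40.0 in CMESO), and AFP, alpha-fetoprotein (0.314 and 1.77). The apolipoprotein APOA2 stood at 1.21, 3.94, 61.6 and 19.99 in ROR2-negative, PMESO, PDGFRa-negative and CMESO cells. Of the 12 paraxial mesoderm markers both tables hold DLL3 and LFNG alone. These summed to 62.0 FPKM in PMESO and 10.5 in CMESO (8.38 and 38.0 in the counterparts). Both were at least 2-fold lower in CMESO (median -2.23). In unsorted cells DLL3 was lower at D4 than at D3, whereas LFNG was higher. Among the 4 paraxial markers with at least 5 FPKM at D3 or D4, 2 were at least 2-fold higher at D4 and 1 lower. The sorted values of DLL3 and LFNG therefore do not stand for the whole list. The 6 neural and ectoderm markers summed to 152, 87.7, 101 and 107, and 4 of them among the 1514 had a median of -1.39: SOX2 and ZIC2 (8.63 FPKM in PMESO, 1.61 in CMESO) were at least 2-fold lower and NES, an intermediate filament gene (39.8 and 88.3), at least 2-fold higher, though not with the median difference set to 0 (0.99). Of the 15 genes of the endothelial and blood list none is in both tables, though SOX17 and KDR, which endothelial cells also express, are. None of these markers was listed at 0 at D3 or D4. The part of these cells in the differences was not tested.

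Setting the 2 sorts side by side divided the 1514 genes into 4 classes by the authors' calls. Higher in the positive population on both days were 789 genes (52.1%), of which 220 were at least 2-fold higher in CMESO than in PMESO and 44 lower. Lower in the positive population on both days were 344 (22.7%), with 11 higher (3.20%) and 80 lower (23.3%). Lower in PMESO but higher in CMESO than their counterparts were 136 (8.98%), with 40 higher (29.4%) and 3 lower (2.21%). Higher in PMESO but lower in CMESO were 245 (16.2%), with 11 higher (4.49%) and 54 lower (22.0%). The last class holds SOX17, FOXA2 and CXCR4. It also holds KIT, the receptor of stem cell factor (5.35, 19.6, 43.6 and 5.94 FPKM in ROR2-negative, PMESO, PDGFRa-negative and CMESO cells), COL4A6, a basement membrane collagen (16.4, 60.2, 207 and 34.8), and CDH2, the neural cadherin (44.7, 112, 140 and 58.9). KIT, COL4A6 and CDH2 were chosen after their values were seen.

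**Figure D4:**
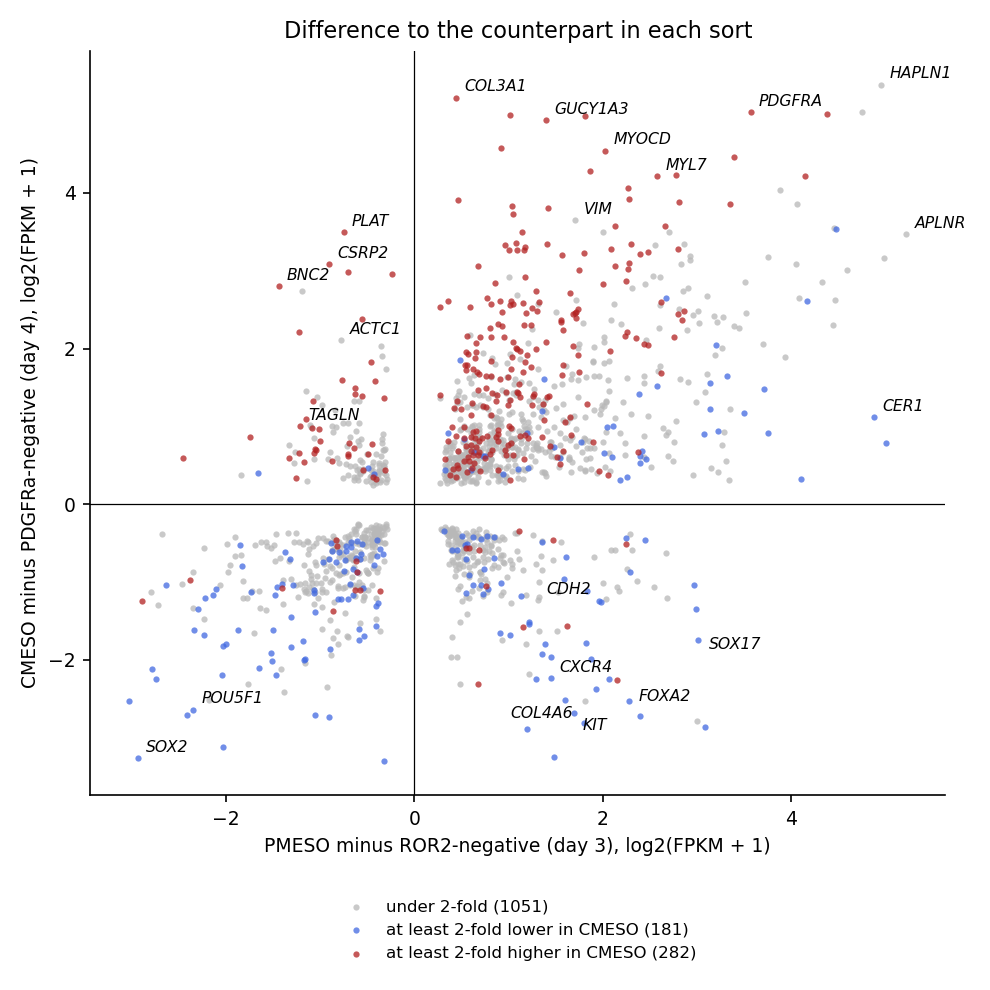
Difference of each positive population to its counterpart in log2(FPKM + 1), PMESO minus ROR2-negative on the x axis and CMESO minus PDGFRa-negative on the y axis, 1 point per gene, coloured by CMESO against PMESO. The colours rest on values that also enter the axes. The upper right quadrant holds 789 genes and 220 of the 282 red ones, the lower left holds 344 genes and 80 of the 181 blue ones, and the band around 0 is empty because the tables hold called genes alone.

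In the unsorted time course the medians of the 2 groups of genes crossed between D3 and D4. The 282 genes higher in CMESO had a median log2(FPKM + 1) of 2.67 at D3, 4.02 at D4, 4.43 at day 10 and 4.17 in purified cardiomyocytes of day 31. The 181 lower genes had a median of 3.18 in stem cells, 3.95 at D3, 2.89 at D4 and 2.07 at day 10. Of the first group 223 (79.1%) had their highest time point at day 5 or later, against 26 (14.4%) of the second and 495 (47.1%) of the 1051 others. From D4 to cardiomyocytes 73 of the 282 were at least 2-fold higher and 68 lower. The gain between D3 and D4 was thus kept at the level of the group's median, while single genes went either way. Of the 181 lower genes 153 (84.5%) peaked at D3 or earlier, with the peak at D3 for 53, in stem cells for 45 and at day 2 for 34.

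Some of the lower genes with the largest differences lie outside the lists. NTS, which encodes the peptide neurotensin, stood at 80.8 FPKM in ROR2-negative cells, 178 in PMESO, 30.9 in PDGFRa-negative cells and 13.1 in CMESO, and unsorted cells had 247 at D3 and 9.71 at D4. GAL, which encodes the peptide galanin, stood at 67.5, 23.2, 6.15 and 1.32. NTS was highest in PMESO and GAL in ROR2-negative cells, and for both genes the day 4 populations lay below the day 3 ones. GJA4, a connexin, stood at 11.1 FPKM in PMESO and 0.754 in CMESO, LOX, which cross-links collagen, at 9.90 and 0.908, and CNR1, a cannabinoid receptor, at 12.2 and 1.40. SLC7A11, a cystine transporter (12.9 and 1.58), and PPAP2C, a lipid phosphatase (30.2 and 3.81), were highest in ROR2-negative cells, at 54.7 and 97.1. ANKRD65 stood at 11.1 and 1.05.

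A small number of genes had the opposite sign in sorted and unsorted cells. Higher in CMESO but lower at D4 were 12 of the 282, led by RGS2, a regulator of G protein signalling (8.74 FPKM in PMESO, 28.6 in CMESO, 34.3 at D3 and 24.1 at D4), THY1, MIR4435-1HG (3.91, 13.3, 5.05 and 4.49), DPYSL3, a cytoskeletal protein of growth cones (17.5, 50.3, 44.7 and 29.9), and MYL4. RGS2, THY1 and DPYSL3 stood lower in PMESO than in both ROR2-negative cells (19.5, 25.9 and 40.0 FPKM) and D3 cells. Lower in CMESO but higher at D4 were 20 of the 181, led by AC137934.1 (21.0, 1.54, 0.985 and 1.83), GREM1, TUBB3, the WNT ligand WNT8A (9.38, 1.86, 22.5 and 24.6) and TINAGL1, a matrix protein (5.90, 1.11, 1.29 and 2.11). WNT8A was highest in ROR2-negative cells (24.8), and GREM1 in PDGFRa-negative cells (22.7).

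The values of a few genes are uncertain. TUBB3, a neuronal tubulin, was listed at 0.0433 FPKM at D3 and 162 at D4, while the sorted day 3 populations had 214 and 133 and the day 4 ones 60.2 and 28.9. SNORA63, a small nucleolar RNA, was listed at 0 at D3 and D4 but at 3560 FPKM in PMESO. For 20 of the 1514 genes over 50% of the exon bases lie in another annotated gene.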

How the data were processed

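RNA depleted of ribosomal RNA was sequenced, per the labels' protocols. The authors deposited 3 tables with FPKM values, 1 per gene and group. The 2 sort tables also give, per the file headers, the authors' log2 fold change, ratio, test score, p-value and q-value. Cufflinks, Bowtie2 2.1.0.0, TopHat2 2.0.8b and hg19 are named, per the submitters' processing notes. Annotation and strand setting: not given in the sources used here. Depth is unknown: the sort tables hold 0 genes above 0 and under 0.3 FPKM in both populations, so no value of 1 read could be read off.

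Genes were joined by name, and differences were taken as log2(FPKM + 1) with Python 3.11.15 and pandas 2.3.3. Differences of 1 or more were counted, and lists were described by counts and medians. The planned test (limma, libraries apart) could not be made. No label ties the 2 libraries of a group to separate cultures, and the authors' q-values may measure technical spread. Calculations were tested on simulated data. Starts of the sort tables count from 0 (2171 day 3 loci then have the length of a GENCODE 29 gene, against 63 if from 1) and were turned to 1-based. Gene types matched by Ensembl gene identifier for 98.0% (1409 protein-coding of 1484 matched). Date names left by a spreadsheet concern 2 genes.

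The genes, markers and 23 gene lists were chosen with earlier results of these data known. Named genes are the markers and sort receptors, the 12 largest protein-coding increases and decreases shared at 2-fold with D4 against D3, the 4 largest 2-fold differences of each list, and the 5 largest of each direction with the opposite sign in unsorted cells. Other genes were named after their values were seen or to describe a list. Alternatives were other pseudocounts, minimums, scalings, gene types and the unsorted cells.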

Additional observations from a re-analysis of the deposited data

Results flagged for a closer look

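For 5 of the 1514 genes the sorted difference of CMESO minus PMESO and the unsorted difference of D4 minus D3 ran in opposite directions by at least 2-fold each. The difference between the 2 comparisons was not tested. THY1, a surface glycoprotein of stromal cells, was higher in CMESO (1.58 in log2(FPKM + 1), 13.6 against 3.89 FPKM) and lower at D4 (11.3 against 27.3). GREM1, a BMP antagonist, was lower in CMESO (-2.34, 1.48 against 11.5 FPKM) and higher at D4 (22.6 against 10.5), and PDGFRa-negative cells had 22.7. CYP1B1, a cytochrome P450 enzyme, was lower in CMESO (-1.46, 3.40 against 11.1 FPKM) and higher at D4 (6.44 against 2.59). PPP1R1B, a phosphatase inhibitor, was lower in CMESO (-1.68, 1.19 against 6.0 FPKM) and higher at D4 (5.07 against 1.65). TUBB3 was lower in CMESO (-2.17), and its value at D3 (0.0433 FPKM) lies far below that of both populations sorted on that day.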

How the results depend on the processing

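No paired analysis was possible because the tables give 1 value per gene and group. For the same reason no replicate could be left out. A pseudocount of 5 in place of 1 gave 187 genes higher and 89 lower in the sorted comparison, and 115 and 129 in unsorted cells. That setting shrinks the differences of low genes. The counts kept within 1.5 times of their value under the other pseudocount, minimums, scalings and gene types tried. Of 79 named genes, 3 (FGFRL1, NCAM1 and NES) fell under 2-fold with the median difference set to 0, and 1 (FGFRL1) with it set to that of D4 against D3. With a pseudocount of 0.1, 10 moved by over 1.5 times, all without a change of sign, among them LUM (5.44) and SOX2 (-3.44). In unsorted cells 45 moved by over 1.5 times or fell under 2-fold, and 20 did neither. Unsorted D4 minus D3 had the opposite sign for the other 14: AC137934.1 (0.51), CCND2 (-0.36), CXCR4 (0.19), DPYSL3 (-0.57), FOXA2 (0.30), GREM1 (1.04), LFNG (0.45), MIR4435-1HG (-0.14), MYL4 (-0.18), RGS2 (-0.49), THY1 (-1.21), TINAGL1 (0.44), TUBB3 (7.29) and WNT8A (0.12), and for the median of the endoderm markers (0.25). The cause was not tested.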

Other observations

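A few genes that were lower in PMESO than in ROR2-negative cells and higher in CMESO than in PDGFRa-negative cells were looked at after their values were seen. TAGLN, a smooth muscle actin-binding protein, stood at 211 FPKM in ROR2-negative cells, 90.2 in PMESO, 119 in PDGFRa-negative cells and 240 in CMESO. CSRP2, a LIM protein of smooth muscle, stood at 109, 57.6, 45.1 and 392. CALD1, which binds actin and myosin, stood at 36.6, 17.3, 47.4 and 77.5, and LIMA1, which bundles actin filaments, at 27.2, 12.9, 17.6 and 35.4. PMESO had the lowest value of the 4 populations for TAGLN, CALD1 and LIMA1, and CSRP2 was lowest in PDGFRa-negative cells. In unsorted cells CSRP2 stood at 157 at D3 and 168 at D4, and TAGLN at 199 and 104.

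Other genes higher in CMESO were likewise chosen after their values were seen. MEIS1, a partner of HOX and PBX factors, stood at 4.49 FPKM in ROR2-negative cells, 37.3 in PMESO, 33.6 in PDGFRa-negative cells and 187 in CMESO. PBX3 stood at 19.8, 35.3, 40.2 and 197. In unsorted cells MEIS1 stood at 22.7 at D3 and 112 at D4, and PBX3 at 37.3 and 127. The endocytic receptor LRP2 stood at 5.01 in PMESO and 46.1 in CMESO, and the basement membrane protein NID2 at 11.9 and 95.0.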
